A study of Rattus norvegicus with 12 samples.

Results

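Organic ion and drug transporters were followed in rat kidneys after ischemia-reperfusion injury, a loss of blood flow followed by its return. The members were the array rows annotated with 1 symbol of the Slc22a, Slco, Slc47a, Abcc or Abcg families, or with Abcb1a or Abcb1b. There were 52 such genes, each with 1 row, among 18166 genes with 1 symbol and a value on every array. All 52 symbols matched RefSeq. The choice was made by gene name, with earlier results of these data known.

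Kidneys were collected at day 2 or day 7 from rats given placebo or anti-miR-182, an inhibitor of one microRNA, with 3 animals in each of 4 groups and 1 array per animal. All 4 groups had been injured, and no uninjured kidney was analysed here. No source used here gives the strain, sex and age of the rats or the dose and timing of the inhibitor. A label calls every sample a zero-hour biopsy, while the titles give day 2 or day 7, and the titles were followed. The deposited values are log2 signals, so a difference of 1 is a doubling of signal. The row of the targeted microRNA gene, Mir182, was higher in all treated than in all placebo animals on each day, at 6.21 to 6.57 against 4.48 to 4.84 at day 2 and 4.93 to 5.999 against 3.97 to 4.75 at day 7. Which transcript form that row detects is not known here.

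These proteins clear drugs, toxins and metabolites. In the proximal tubule, uptake carriers of the blood side (basolateral membrane) bring organic anions and cations into the cell. Other carriers and ATP-driven pumps of the urine side (apical membrane) move them into the tubular fluid. Organic anion carriers of the SLC22 family exchange their substrate for a dicarboxylate, whose supply depends on sodium-coupled uptake.

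A member was called well expressed when its mean over the 12 arrays lay above the median of all genes, 6.42. This held for 26 of the 52: 6 of 9 organic anion carriers, 5 of 8 organic cation, carnitine and related Slc22a genes, 4 of 13 Slco genes, 1 of 2 Slc47a genes, 5 of 10 Abcc genes, 3 of 8 Abcg genes and both Abcb1 genes. Slc22a17 lay just below the limit at 6.40 and Abcc1 just above it at 6.58. Signals of different rows do not order genes by RNA amount. The 13 markers of the proximal tubule outside these families lay on average 2.94 to 3.68 log2 units above the mean of all genes on every array. The 4 liver markers lay at -1.50 to -0.955 relative to that mean, and albumin, among them, had group means of 4.48 to 4.94. Since these values set different rows side by side, they describe the arrays and do not test the tissue.

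Several members lie side by side in the RefSeq gene order (assembly GRCr8), where Slc22a25, Slc22a8 and Slc22a6 are consecutive protein-coding genes of chromosome 1. Abcb1b and Abcb1a are neighbours on chromosome 4, as are Slco1a3 and Slco1a6. RefSeq promoter sequences (GRCr8) of 250 bases before and 50 bases after the start site were given for 22 of the 26, and for those of Slc22a6 none was at hand. Both strands were searched for 4 motifs. The core motif GTTAAT of the liver and kidney factor HNF1 (reverse complement ATTAAC) was found in 3 of the 22 (13.6%), against 7.45% of 33469 rat promoters. Those 3 were Slc22a8, Slc22a25 and Slc22a24, anion carriers of chromosome 1. Slc22a12, another anion carrier of that chromosome, had no match, and Slc22a6 could not be searched. The antioxidant response core TGACNNNGC was found in Slc22a23 and Slco4c1 (9.09%, against 12.1% of all). The HNF4 direct repeat with 1 spacer base, in its strict and its looser form, which overlap, was found in 0 of the 22, and in 0.00896% and 0.0627% of all promoters. A match describes letters only and shows no binding.

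The 250 bases before the start site are printed for the 3 promoters with GTTAAT, for Slc22a5, whose signal fell in both arms, and for Slc22a22, whose signal was the most raised at day 7 in placebo. Capitals mark the motif, which begins 93 bases before the start in Slc22a8, 141 in Slc22a25 and 123 in Slc22a24. In the last pair it is read on the other strand.
Slc22a8, GRCr8 chr1:214927034-214927283, plus strand: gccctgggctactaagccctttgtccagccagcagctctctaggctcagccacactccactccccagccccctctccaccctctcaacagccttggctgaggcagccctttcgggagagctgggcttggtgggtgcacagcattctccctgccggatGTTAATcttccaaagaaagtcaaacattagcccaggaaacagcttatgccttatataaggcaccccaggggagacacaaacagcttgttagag
Slc22a25, GRCr8 chr1:214862341-214862590, minus strand: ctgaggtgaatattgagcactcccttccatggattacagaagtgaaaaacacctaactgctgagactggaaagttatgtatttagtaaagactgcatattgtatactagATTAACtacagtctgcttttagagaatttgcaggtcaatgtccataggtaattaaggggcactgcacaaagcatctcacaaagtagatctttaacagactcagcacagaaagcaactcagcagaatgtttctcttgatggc
Slc22a24, GRCr8 chr1:214394682-214394931, minus strand: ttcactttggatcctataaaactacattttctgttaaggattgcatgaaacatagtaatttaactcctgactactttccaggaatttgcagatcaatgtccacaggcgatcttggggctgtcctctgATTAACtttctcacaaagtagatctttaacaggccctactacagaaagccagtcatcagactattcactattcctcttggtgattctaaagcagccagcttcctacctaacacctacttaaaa
Slc22a5, GRCr8 chr10:38536073-38536322, minus strand: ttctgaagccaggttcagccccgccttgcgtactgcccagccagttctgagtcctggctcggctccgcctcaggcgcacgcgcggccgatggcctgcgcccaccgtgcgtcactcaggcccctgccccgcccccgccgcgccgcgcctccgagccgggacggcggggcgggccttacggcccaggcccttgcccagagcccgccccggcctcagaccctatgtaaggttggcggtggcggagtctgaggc
Slc22a22, GRCr8 chr7:90639696-90639945, minus strand: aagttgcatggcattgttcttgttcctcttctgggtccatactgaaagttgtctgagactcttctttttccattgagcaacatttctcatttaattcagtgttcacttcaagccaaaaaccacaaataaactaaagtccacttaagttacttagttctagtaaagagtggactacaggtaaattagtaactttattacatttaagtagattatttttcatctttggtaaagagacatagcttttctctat

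These stretches differ widely in base composition: 74.4% of the bases are G or C in Slc22a5 and 32.8% in Slc22a22, against a median of 51.2% over all promoters. Slc22a24 and Slc22a25 both have 39.2%, and Slc22a8 has 56%. Slc22a8 and Slc22a25 are read from opposite strands.

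The distribution of all values differed between the days. Array medians over all rows were 5.98 to 6.10 at day 2 and 5.84 to 5.93 at day 7, and 190 rows had no value on the day 2 arrays. Each day may have been normalized apart, so the day and the normalization cannot be told apart in any comparison of days. All genes tested had a median difference of -0.18 between day 7 and day 2 in placebo and of -0.21 under anti-miR-182. Differences between days are therefore also given after quantile normalization of the 12 arrays together, which set that median to 0.0002 and 0.0001. Fewer cells of a type and less RNA per cell cannot be told apart in whole tissue. The spread between animals was uneven: the median SD of the 26 was 0.47 in anti-miR-182 at day 2, against 0.14 in placebo at day 2, 0.22 in placebo at day 7 and 0.24 in anti-miR-182 at day 7.

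**Figure D1:**
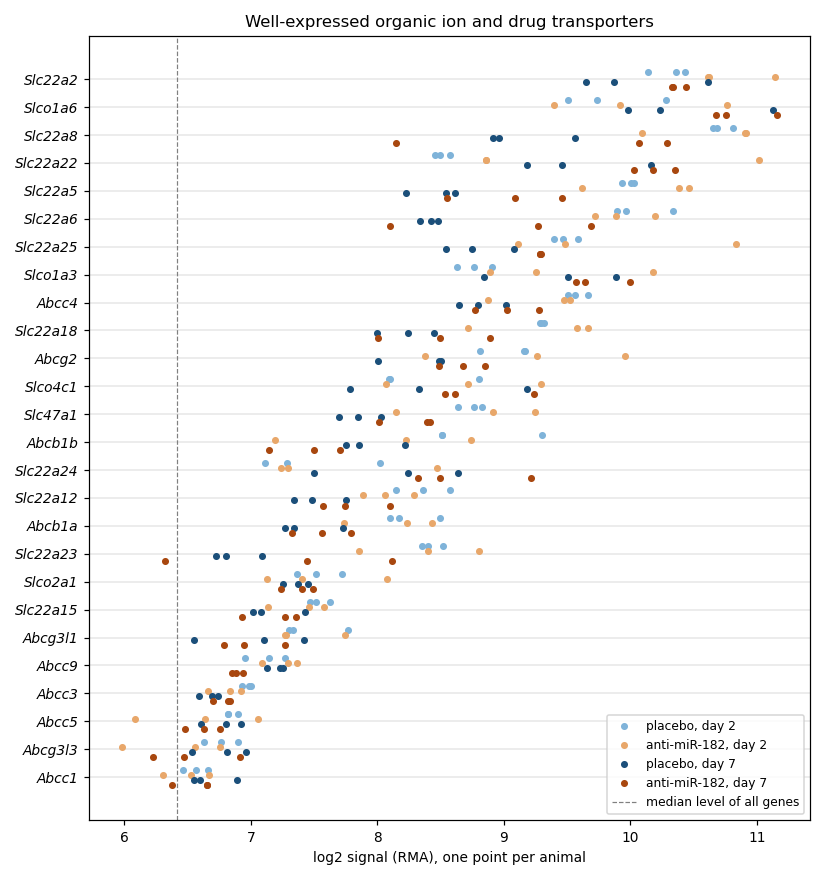
Log2 signal of the 26 well-expressed transporters (rows) in each of the 12 animals, coloured by group; the dashed line is the median level of all genes, 6.42. In Slc22a5 and Slc22a6 all 3 placebo animals of day 7 lie left of all 3 placebo animals of day 2, and in Slc22a22 they lie to the right.

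The first comparison asked how the transporters changed from day 2 to day 7 in placebo kidneys. On the deposited values, Slc22a6 and Slc22a8, carriers of organic anions, and Slc22a5, a carrier of carnitine, were among those lower at day 7. So were Slc47a1, Abcc4 and Abcb1a, which export drugs and metabolites. The largest change on these values was 3.14-fold, in Slc22a6. Limma called 10 of the 26 lower and 0 higher at an adjusted p under 0.05. Over all genes 28% were called, 23.7% lower and 4.22% higher, and among genes above the median level 31.5% were called lower. The median difference of the 26 was -0.40, against -0.26 for all genes above the median level. After quantile normalization 4 of the 26 were called lower and 2 higher, and the split over all genes went from 766 higher and 4314 lower to 1478 higher and 1436 lower. Of the genes named above, Slc22a5 and Slc22a6 kept their calls there, and Slc22a8, Slc47a1, Abcc4 and Abcb1a lost them.

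Slc22a6 (OAT1) and Slc22a8 (OAT3) are the principal basolateral carriers of organic anions such as para-aminohippurate. Slc22a6 had signals of 10.34, 9.96 and 9.90 in placebo at day 2 and of 8.43, 8.48 and 8.34 at day 7. The groups did not overlap, and 40% of all genes showed such a separation downwards. The difference was -1.65 ± 0.29 (SE, n = 3 per group; limma adjusted p = 0.0017), and -1.34 after quantile normalization (limma adjusted p = 0.01). Slc22a8 had 10.69, 10.81 and 10.65 at day 2 and 8.92, 9.56 and 8.96 at day 7. Its groups were apart as well, by -1.57 ± 0.42 (limma adjusted p = 0.0144), and the call ended after quantile normalization (-1.25, adjusted p = 0.0578 in limma).

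Slc22a5 (OCTN2) is the sodium-coupled carnitine carrier of the apical membrane. Its signals were 10.01, 9.94 and 10.03 at day 2 and 8.23, 8.55 and 8.61 at day 7, with no overlap. The difference of -1.53 ± 0.23 passed in limma (adjusted p = 0.000659) and after quantile normalization (-1.22, adjusted p = 0.00231). Slc22a23, a family member without an established substrate, had 8.40, 8.35 and 8.52 at day 2 and 6.72, 7.09 and 6.80 at day 7. It fell by 1.55 (SE 0.33, adjusted p = 0.00507 in limma) and by 1.32 after quantile normalization (adjusted p = 0.016). Slc22a18, also a transporter-like member of this family, had 9.32, 9.29 and 9.29 at day 2 and 8.45, 8.24 and 7.996 at day 7, a difference of -1.07 ± 0.24 (limma adjusted p = 0.00631) and of -0.77 after quantile normalization (adjusted p = 0.0307). In all 3 genes every day 7 animal lay below every day 2 animal.

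Slc22a12 (URAT1) takes up urate from the tubular fluid. It had 8.57, 8.36 and 8.14 at day 2 and 7.75, 7.34 and 7.48 at day 7, with no overlap and a difference of -0.83 ± 0.17 (limma adjusted p = 0.00324). Genes of efflux proteins were also called lower. Slc47a1 (MATE1), which exchanges organic cations for protons at the apical membrane, had 8.63, 8.83 and 8.76 at day 2 and 8.03, 7.85 and 7.70 at day 7 (difference -0.88 ± 0.22, limma adjusted p = 0.00957). Abcc4 (MRP4), an ATP-driven pump of organic anions and cyclic nucleotides, had 9.56, 9.66 and 9.51 and then 8.65, 9.02 and 8.79 (-0.76 ± 0.17, limma adjusted p = 0.00719). Abcb1a, which encodes P-glycoprotein, had 8.10, 8.50 and 8.17 and then 7.73, 7.27 and 7.34 (-0.81 ± 0.19, limma adjusted p = 0.00761). None of these groups overlapped between the days. After quantile normalization these 4 differences were -0.57, -0.60, -0.44 and -0.55 in the order named, and limma adjusted p-values of 0.0514, 0.0527, 0.0606 and 0.0515 no longer passed.

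Abcc3 (MRP3), a basolateral conjugate pump, was the smallest change called. It had 6.998, 6.93 and 6.98 at day 2 and 6.59, 6.70 and 6.74 at day 7 (-0.30 ± 0.10, limma adjusted p = 0.0484). That call ended in 10 of the 12 fits that each left out 1 array, with adjusted p up to 0.145 in limma, and after quantile normalization (-0.11, adjusted p = 0.443). Calls of the other 9 stayed past the threshold in limma whichever of the 12 arrays was left out, with a highest adjusted p of 0.0461, for Slc22a8.

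Of the 26, 8 had higher means at day 7 in placebo and 0 of these passed. The 4 with the largest differences belong to the organic anion carriers and the Slco family. Slc22a22, a rodent gene whose mouse counterpart carries prostaglandins, had 8.57, 8.46 and 8.49 in placebo at day 2 and 10.16, 9.19 and 9.46 at day 7. All day 7 animals lay above all day 2 animals, as in 8.38% of all genes, and the difference of 1.09 ± 0.43 missed the threshold (limma adjusted p = 0.0692). It passed after quantile normalization (1.42, adjusted p = 0.0348 in limma). Slco1a3, a kidney organic anion transporting polypeptide, had 8.77, 8.91 and 8.63 and then 9.89, 8.84 and 9.51, with 1 overlapping animal at day 7 (0.65 ± 0.29, limma adjusted p = 0.106). It too passed after quantile normalization (0.97, adjusted p = 0.0366 in limma). When the anti-miR-182 animal numbered 3 at day 2 was left out, which enters through the shared spread, Slc22a22 and Slco1a3 passed as higher (adjusted p = 0.00198 and 0.0396 in limma) and Abcg2 and Slc22a25 as lower (0.0223 and 0.00381). Slco1a3 also passed without placebo replicate 2 of day 7 (0.93, adjusted p = 0.0329 in limma), and Abcg2 without the anti-miR-182 animal numbered 1 at day 2 (0.0148).

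Slco1a6, next to Slco1a3 in the genome, had 9.74, 10.28 and 9.51 at day 2 and 11.12, 10.24 and 9.98 at day 7 (0.61 ± 0.33, limma adjusted p = 0.18). Slc22a24, an anion carrier of the chromosome 1 group, had 7.29, 8.02 and 7.11 and then 8.64, 7.498 and 8.24 (0.65 ± 0.36, limma adjusted p = 0.187). Both sets of groups overlapped. Slc22a25, whose upstream stretch carries the same motif as Slc22a24, differed in the other direction (-0.69 ± 0.31, limma adjusted p = 0.103), with all day 7 animals (8.55 to 9.08) below all day 2 animals (9.40 to 9.58). Of the 3 genes with the motif, 1 was thus called lower, and the other two did not pass in either direction.

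The remaining 11 well-expressed members did not pass in placebo between the days when all arrays were used. Abcb1b passed as lower without anti-miR-182 replicate 1 or 2 of day 2, and Slc22a2 without placebo replicate 1 of day 7. Slc22a15 and Abcg3l1 passed as lower without placebo replicate 3 of day 7. Abcb1b (-0.83 ± 0.32) and Abcg2, the breast cancer resistance protein pump (-0.72 ± 0.29), had lower means and groups that did not overlap. Abcg3l1 differed by -0.45, Slc22a15 by -0.36, the cation carrier Slc22a2 (OCT2) by -0.26, the prostaglandin carrier Slco2a1 by -0.17 and Abcc5 by -0.07. Abcg3l3 (0.01), Abcc9 (0.08), Slco4c1 (0.10) and Abcc1 (0.12) lay near 0. The signs of Slc22a2, Slco2a1 and Abcc5 turned under quantile normalization (0.08, 0.08 and 0.12).

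**Figure D2:**
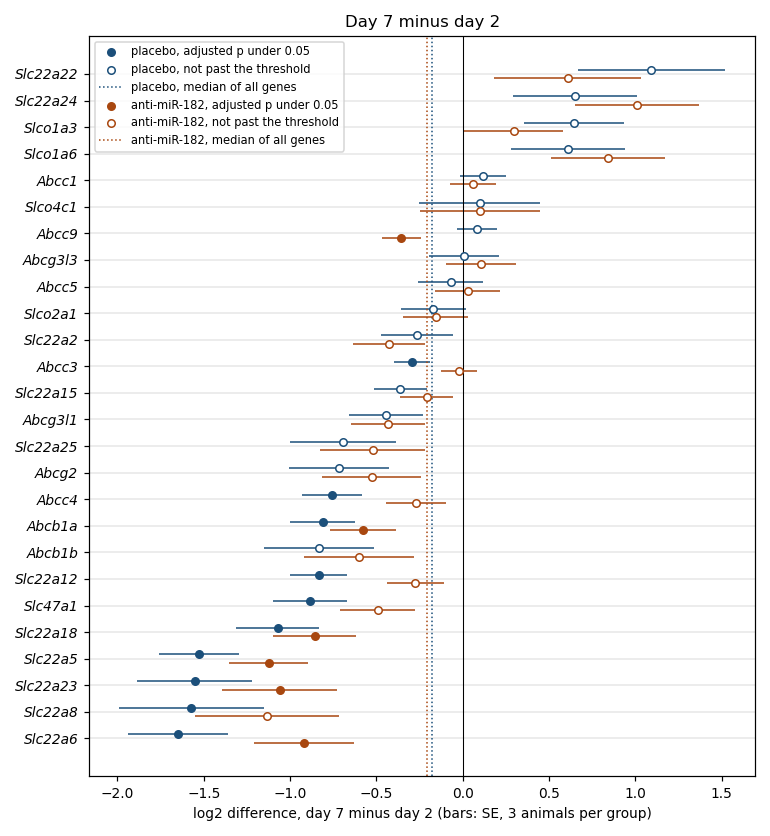
Log2 difference between day 7 and day 2 (x axis) for the 26 transporters in placebo (blue) and anti-miR-182 (brown); bars are the SE, filled points have an adjusted p under 0.05, and dotted lines mark the median of all genes, -0.18 and -0.21. The filled points lie on the left, with 10 in placebo and 6 under anti-miR-182, and the open points of Slc22a22, Slc22a24, Slco1a3 and Slco1a6 lie on the right.

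Under anti-miR-182 the same comparison called 6 of the 26 lower and 0 higher, where 24.9% of all genes were called lower and 2.68% higher. Among genes above the median level 26.8% were called lower. All day 7 animals lay below all day 2 animals in 4 of the 26 and in 35% of all genes. The median difference was -0.31, against -0.23 for all genes above the median level. After quantile normalization 1 of the 26, Slc22a5, was called lower, and Slc22a24 and Slco1a6 were called higher. The split over all genes then went from 487 higher and 4515 lower to 1311 higher and 1384 lower.

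Slc22a5 had 9.62, 10.46 and 10.39 at day 2 and 9.09, 9.46 and 8.55 at day 7 under anti-miR-182. These groups did not overlap, and the difference of -1.12 ± 0.23 passed in limma (adjusted p = 0.00386; -0.80 and 0.022 after quantile normalization). It passed whichever array was left out, with an adjusted p of at most 0.0219 in limma. Slc22a6 had 9.72, 10.19 and 9.89 and then 9.69, 9.27 and 8.10, also without overlap but with 1 day 7 animal close to the day 2 range (-0.92 ± 0.29, limma adjusted p = 0.0315). Its call ended after quantile normalization (-0.61, adjusted p = 0.194 in limma) and without replicate 2 (0.114) or 3 (0.0558) of day 2 or replicate 3 of day 7 (-0.46, 0.0906).

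Slc22a23 (-1.06 ± 0.33), Slc22a18 (-0.86 ± 0.24) and Abcb1a (-0.58 ± 0.19) were called lower under anti-miR-182 with limma adjusted p = 0.0311, 0.0187 and 0.0362. In each of the 3 the days overlapped. Slc22a23 had 7.85, 8.80 and 8.40 at day 2 and 7.44, 8.11 and 6.32 at day 7. Slc22a18 had 8.72, 9.58 and 9.67 and then 8.50, 8.89 and 8.004, and Abcb1a had 7.73, 8.44 and 8.24 and then 7.32, 7.79 and 7.56. All 3 calls ended without replicate 2 of day 2 (limma adjusted p = 0.129, 0.0793 and 0.15), without replicate 3 of day 2 (0.0658, 0.0655 and 0.0859) and without replicate 3 of day 7 (0.118, 0.0865 and 0.0832), and those of Slc22a23 and Abcb1a without replicate 1 of day 7 (0.0577 and 0.134). The Slc22a23 difference was -0.58 without replicate 3 of day 7.

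Abcc9 encodes the sulfonylurea receptor subunit of potassium channels in vascular muscle and carries no drug. It had 7.36, 7.29 and 7.09 at day 2 and 6.85, 6.94 and 6.89 at day 7 under anti-miR-182, with no overlap (-0.36 ± 0.11, limma adjusted p = 0.0334). That call ended without any single array of either group except replicate 3 of day 2 (adjusted p = 0.053 to 0.0937 in limma) and after quantile normalization (-0.17, 0.306). Slc22a8 had 10.09, 10.91 and 10.91 and then 10.07, 10.29 and 8.14, and its difference of -1.14 ± 0.42 missed the threshold (limma adjusted p = 0.0567). Its day 7 animals were split, with replicate 3 below every other animal of the study. Slc22a24 had 7.24, 7.29 and 8.47 and then 8.32, 8.50 and 9.22, with overlap, and missed the threshold (1.01 ± 0.36, limma adjusted p = 0.0501).

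The difference between the arms in the change from day 2 to day 7 was tested directly. Limma called 0 of 52 members and 0 of 18166 genes (0%), and at an unadjusted p under 0.05 there were 3 members (Abcc9, Slc22a12 and the dim Slc22a14) and 713 genes (3.92%, 1.22% higher and 2.7% lower under anti-miR-182). The smallest unadjusted p-values among the 26 belonged to Abcc9 (-0.44 ± 0.16), Slc22a12 (0.56 ± 0.23) and Abcc4 (0.49 ± 0.25). Under anti-miR-182 Slc22a12 had 8.29, 7.89 and 8.06 at day 2 and 8.10, 7.75 and 7.57 at day 7, with overlap. Abcc4 had 8.88, 9.48 and 9.53 and then 9.03, 9.28 and 8.77, also with overlap, where both genes had days that did not overlap in placebo. For Slc22a6 the difference between the arms was 0.73, with a 95% interval of -0.15 to 1.61. A call in placebo without one under the inhibitor is therefore not shown to be a difference between the arms.

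**Figure D3:**
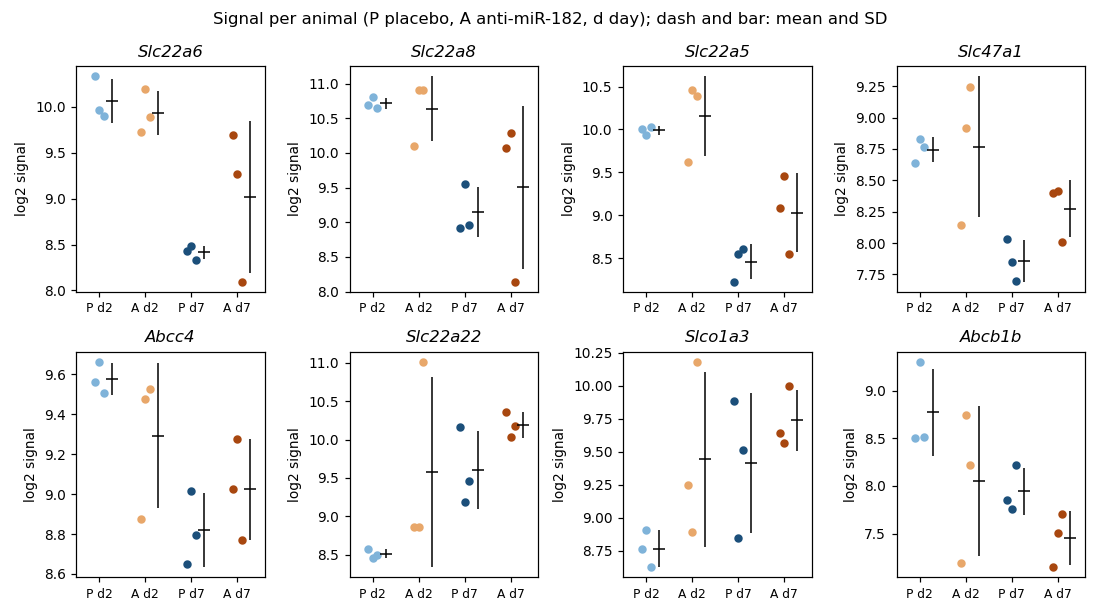
Log2 signal of 8 transporters in every animal (points) with the mean and SD of each group (dash and bar) for placebo (P) and anti-miR-182 (A) at day 2 and day 7; y axes differ between panels and do not start at 0. Slc22a6 and Slc22a8 of anti-miR-182 at day 7 spread from 8.10 to 9.69 and from 8.14 to 10.29, and 1 animal of anti-miR-182 at day 2 holds the highest Slc22a22 signal, 11.01.

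The treatment comparison at day 2 asked whether the transporters differed between anti-miR-182 and placebo early after injury. Of the 26, 13 had higher and 13 lower means under the inhibitor, with a median difference of -0.02. Of all genes 58.7% had higher means, and of those above the median level 45%. Limma called 0 of 52 members and 0 of 18166 genes (0%). At an unadjusted p under 0.05 there were 3 of the 26 higher and 1 lower, where 6.61% of all genes passed, 4.2% higher and 2.41% lower.

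Slc22a22 had 8.86, 8.86 and 11.01 under anti-miR-182 and 8.57, 8.46 and 8.49 under placebo at day 2. The groups did not overlap, as in 8.06% of all genes upwards, but 1 animal made most of the difference of 1.07 ± 0.43 (limma adjusted p = 0.754). Without that animal, replicate 3, the difference was 0.35 (adjusted p = 0.708 in limma). Slc22a2 had 10.62, 10.62 and 11.14 against 10.43, 10.36 and 10.14, again without overlap (0.48 ± 0.21, limma adjusted p = 0.754; 0.31 without replicate 3). Slco1a3 had 9.25, 8.89 and 10.18 against 8.77, 8.91 and 8.63, with overlap (0.67 ± 0.29, limma adjusted p = 0.754; 0.30 without replicate 3).

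Abcb1b is the second rodent gene of P-glycoprotein and a close copy of Abcb1a, and whether its row also detects that transcript was not tested. It had 7.19, 8.74 and 8.22 under anti-miR-182 and 8.51, 9.30 and 8.51 under placebo at day 2, with overlap (-0.72 ± 0.32, limma adjusted p = 0.754). Abcb1a differed by -0.12 ± 0.19. Slc22a6 and Slc22a8 differed by -0.13 ± 0.29 and -0.08 ± 0.42, with a 95% interval of -0.98 to 0.82 for Slc22a8 that leaves sizeable differences either way undetectable with 3 animals. Abcc4 had 8.88, 9.48 and 9.53 against 9.56, 9.66 and 9.51 (-0.28 ± 0.17, limma adjusted p = 0.784).

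The animals given anti-miR-182 were unlike each other at day 2. Of the 26 members 15 were lowest of the group in replicate 1 and 13 highest in replicate 3. The mean signal of the 26 relative to all genes was 1.59 in replicate 1, 1.86 in replicate 2 and 2.20 in replicate 3, against 1.81 to 1.98 in placebo. Markers of the proximal tubule ran in the same order, at 3.13, 3.46 and 3.68 (placebo 3.34 to 3.52), and the 8 tubular injury markers were lowest in replicate 3 (1.98, 2.04 and 1.16; placebo 2.14 to 2.35). The 6 distal and collecting duct markers were highest in replicate 1 (1.88, 1.40 and 1.33; placebo 1.16 to 1.34). The part of these differences in the transporter values was not tested.

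At day 7 the comparison asked whether transporters differed between the arms later after injury. Of the 26, 20 had higher means under anti-miR-182 and 6 lower, with a median difference of 0.30 against 0.0023 for all genes above the median level, of which 50.7% had higher means (49.8% of all genes). All 6 organic anion carriers, all 5 organic cation, carnitine and related genes, all 4 Slco genes and Slc47a1 had higher means. Among these Slc22a15 (0.0097) and Slco2a1 (0.0164) lay near 0, and their signs turned under some alternatives (down to -0.08 and -0.04). Limma called 0 of 52 members and 0 of 18166 genes (0%), and 1 of the 26 was higher and 1 lower at an unadjusted p under 0.05, where 3.26% of all genes passed, 1.61% higher and 1.66% lower. The median was 0.30 after quantile normalization and ran from 0.086 without replicate 2 of anti-miR-182 to 0.35 without placebo replicate 1. On the same arrays 12 of 13 proximal tubule markers had higher means under anti-miR-182 (median 0.23), and all 6 macrophage markers (median -0.41) and all 4 fibroblast markers (median -0.37) had lower ones, with 0 called. Placebo replicate 2 stood apart in these: its macrophage markers were at 1.95 relative to all genes, against 0.58 and 0.90 in the other placebo animals and 0.58 to 0.68 in treated ones, and its fibroblast markers at 2.79, against 2.37 and 2.19 and 1.97 to 2.24. It also had the lowest level of the 26 transporters (1.49), and without it their median difference was 0.15. The part of these cell type markers in the transporter values was not tested.

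Slc22a5 was the higher one. It had 9.09, 9.46 and 8.55 under anti-miR-182 at day 7 and 8.23, 8.55 and 8.61 under placebo, with 1 treated animal inside the placebo range (0.57 ± 0.23, limma adjusted p = 0.999; 0.36 without treated replicate 2 and 0.81 without replicate 3). Slc22a6 had 9.69, 9.27 and 8.10 against 8.43, 8.48 and 8.34, so that 2 treated animals lay above and 1 below all placebo animals (0.60 ± 0.29, limma adjusted p = 0.999). Without that animal, replicate 3, the difference was 1.06 (adjusted p = 0.276 in limma), and without treated replicate 1 it was 0.27. Slc22a8 showed the same split, with 10.07, 10.29 and 8.14 against 8.92, 9.56 and 8.96 (0.36 ± 0.42, limma adjusted p = 0.999), and 1.04 without replicate 3 (0.801). Its sign turned without treated replicate 2 (-0.04), and it was 0.07 without treated replicate 1.

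Slc22a25 had 9.29, 9.30 and 9.29 under anti-miR-182 and 9.08, 8.55 and 8.75 under placebo at day 7, the sole member of the 26 whose treated animals all lay higher (0.50 ± 0.31, limma adjusted p = 0.999), where 3.5% of all genes did. Slc47a1 had 8.40, 8.42 and 8.01 against 8.03, 7.85 and 7.70 (0.42 ± 0.22, limma adjusted p = 0.999). Slc22a22 had 10.36, 10.03 and 10.18 against 10.16, 9.19 and 9.46 (0.59 ± 0.43, limma adjusted p = 0.999). In each of the latter pair 1 treated animal lay within the placebo range.

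The pump gene Abcb1b and the channel gene Abcc9 had treated animals that all lay lower at day 7, as did 3.75% of all genes. Abcc9 had 6.85, 6.94 and 6.89 against 7.23, 7.13 and 7.26 (-0.31 ± 0.11, limma adjusted p = 0.999), and Abcb1b had 7.15, 7.502 and 7.71 against 7.85, 7.75 and 8.22 (-0.49 ± 0.32, limma adjusted p = 0.999). Abcb1b was lower on both days. Its mean difference over the days of -0.61 ± 0.22 did not pass (limma adjusted p = 0.888), nor did the mean differences of Slc22a22 (0.83 ± 0.30), Slco1a3 (0.50 ± 0.20), Slc22a2 (0.40 ± 0.15) and Slc22a5 (0.37 ± 0.16), all with limma adjusted p = 0.888. Over both days limma called 0 of 52 members and 1 of 18166 genes (0.0055%), Mir182 (1.45 ± 0.17, adjusted p = 0.0104). At an unadjusted p under 0.05, 4 of the 26 were higher and 1 lower, where 5.27% of all genes passed, 3.24% higher and 2.03% lower.

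Of the 26 members, replicate 3 of anti-miR-182 at day 7 was the lowest of its group in 10 and the highest in 8. Replicate 1 was also the lowest in 10, and replicate 2 was the highest in 12. Those lowest in replicate 3 included Slc22a6, Slc22a8, Slc22a5, Slc22a23, Slc47a1 and Abcc4. Replicate 3 was the highest in Slco1a6, Slco1a3, Slco4c1 and Slc22a24, among others. Its proximal tubule markers stood at 2.94, against 3.59 and 3.38 in its group and 2.94 to 3.21 in placebo. Its injury markers stood at 2.47, against 2.15 and 2.26 in its group and 1.80 to 2.44 in placebo. The part of these in the transporter values was not tested.

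**Figure D4:**
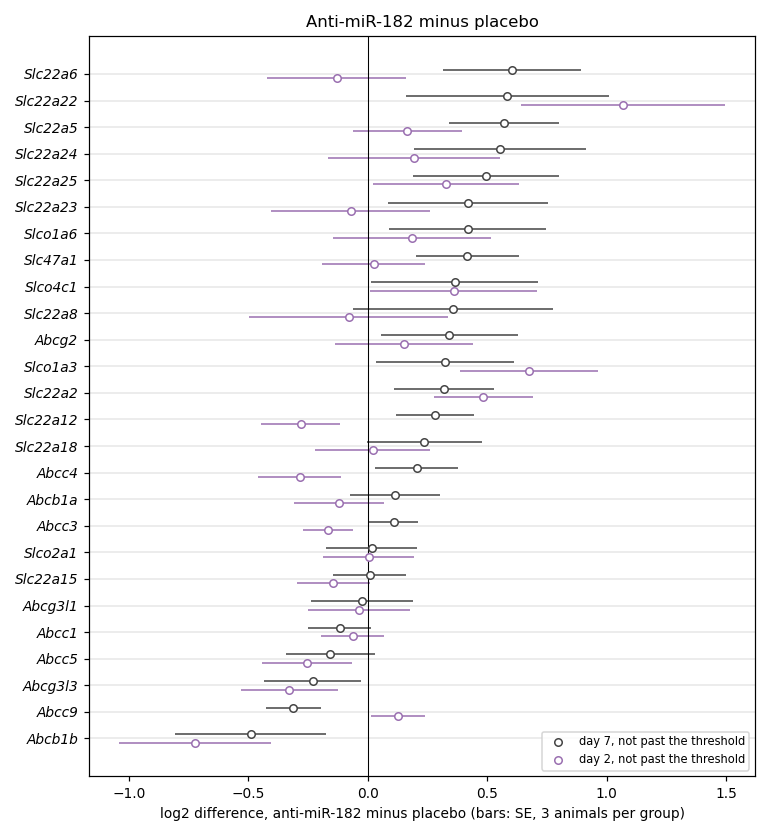
Log2 difference between anti-miR-182 and placebo (x axis) for the 26 transporters at day 7 (grey) and day 2 (purple), ordered by day 7. Bars are the SE of the fit, with 3 animals per group and a spread shared by all groups. Open points did not pass an adjusted p of 0.05, which no point did. At day 7, 20 points lie right of 0 and 6 left, and at day 2, 13 lie on each side.

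Genes that work with these carriers were read from a list of 33, of which 27 had a value (Slc9a3r1, Slc9a3r2 and Tmem27 under the names Nherf1, Nherf2 and Cltrn). In placebo 12 of the 27 were called lower at day 7 and 0 higher in limma, with a median of -0.50, where 23.7% of all genes were called lower and 4.22% higher, with a median of -0.18. Among genes above the median level, 31.5% were called lower and 2.52% higher, with a median of -0.26. The list itself lay on average 1.59 to 2.17 log2 units above the mean of all genes on the 12 arrays. After quantile normalization 5 were lower and 1, Ahr, was higher. Slc13a3, the basolateral dicarboxylate carrier that feeds anion exchange, had means of 10.29 at day 2 and 8.85 at day 7 (-1.45 ± 0.27, limma adjusted p = 0.00231). The peptide carrier Slc15a1 (-1.95 ± 0.39, limma adjusted p = 0.00352), the nuclear receptors Ppara (-1.14 ± 0.23, 0.00336) and Hnf4g (-1.08 ± 0.17, 0.000964) and the organic anion carrier Slc17a3 (-0.79 ± 0.15, 0.00237) passed with it, and all 5 also passed after quantile normalization. The factor Hnf4a (-0.49 ± 0.18, limma adjusted p = 0.0564) did not pass.

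The scaffold gene Pdzk1, whose protein anchors apical carriers (-0.65 ± 0.20, limma adjusted p = 0.0275), was among the other 7 called lower, with Nherf1 (-0.64), Nherf2 (-0.49), the bile acid receptor Nr1h4 (-0.71), the antioxidant factor Nfe2l2 (-0.50), the dicarboxylate carrier Slc13a2 (-0.67) and Slc17a2 (-0.71). These 7 calls ended after quantile normalization. Under anti-miR-182, 24.9% of all genes and 26.8% of those above the median level were called lower. Of the 27, 9 were: Slc15a1 (-1.73), Slc13a3 (-1.04), Ppara (-1.03), Hnf4g (-0.75), Nfe2l2, Nherf2 and Slc17a3 (-0.52 each), Slc51b (-0.53) and Abcb4 (-0.45). None was called higher. After quantile normalization 2 remained lower, Ppara and Slc15a1, and Ahr was called higher. Between the treatments 0 of the 27 passed at either day, with medians of 0.023 at day 2 and 0.16 at day 7, and at day 7 Slc13a3 (0.29 ± 0.27), Pdzk1 (0.33 ± 0.20) and Hnf4a (0.11 ± 0.18) did not pass.

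Markers of cell types moved with the days. Of 13 proximal tubule markers, 6 were called lower at day 7 in placebo (Lrp2, Slc34a1, Aqp1, Fbp1, Dpep1 and Acsm2) and 1 higher (Slc5a1). The shares were 23.7% and 4.22% of all genes, and 31.5% and 2.52% of those above the median level. The list's level relative to all genes was 3.34 to 3.52 at day 2 and 2.94 to 3.21 at day 7. After quantile normalization Fbp1 and Dpep1 were lower and Slc5a1 and Anpep higher. Of 6 macrophage markers 3 were called higher (Adgre1, Mrc1 and C1qa), and their level went from 0.002 to 0.047 at day 2 up to 0.58 to 1.95 at day 7. Under anti-miR-182, 4 of the 13 proximal tubule markers were called lower (Lrp2, Fbp1, Dpep1 and Acsm2) and Slc5a1 higher. There 4 of 6 distal and collecting duct markers were also called lower (Slc12a3, Calb1, Scnn1g and Slc4a1, with a list median of -0.73). In that arm 24.9% of all genes and 26.8% of those above the median level were called lower. Of the 8 injury markers 6 had higher and 2 lower means there. Lcn2 (2.004 ± 0.55, limma adjusted p = 0.0165) and Cd44 (0.86 ± 0.22, 0.012) were called higher, against 2.68% of all genes. In placebo 3 of the 8 had higher and 5 lower means, and 0 were called. The macrophage markers Adgre1 and Mrc1 were called higher under anti-miR-182. After quantile normalization the lower calls of the proximal and distal lists in that arm ended, and Anpep and Sox9 were added as higher. It also added Sox9 and Csf1r as higher in placebo. In placebo the 4 endothelial markers stood at 1.53 to 1.66 and then 1.93 to 2.23. Among the other lists, Rgs5, Col3a1, Cd3e and Cyp3a2 were called higher in placebo and Ms4a1, Alb and Apob lower. Under anti-miR-182 Cyp3a2 was called higher and Tek, Ms4a1, Alb and Apob lower. Quantile normalization ended the lower calls of Alb and Apob in both arms and of Tek under anti-miR-182. It added Cdh5, Tek, Plvap, Col1a1, Pdgfra and Dcn as higher in placebo, and Rgs5 and Dcn under anti-miR-182. The lowest value of any row was 1.48, so a signal does not show that a marker was detected. The part of these markers in the transporter values was not tested.

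**Figure D5:**
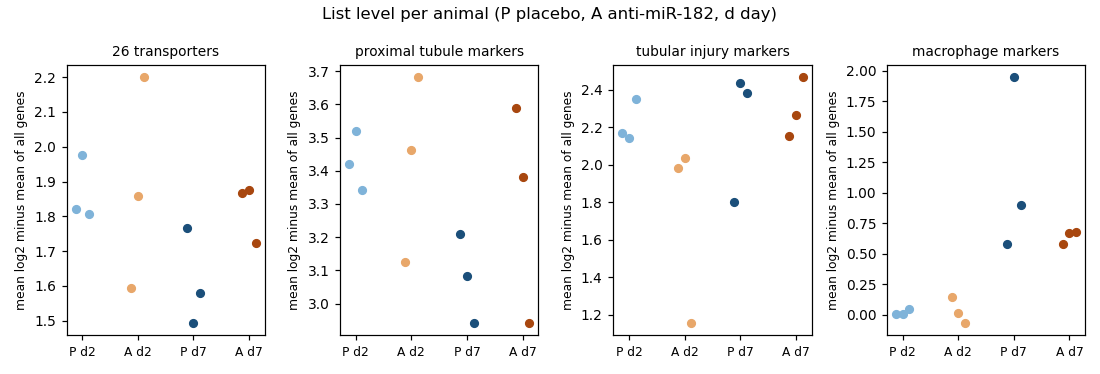
Mean log2 signal of the 26 transporters, 13 proximal tubule markers, 8 tubular injury markers and 6 macrophage markers minus the mean of all genes, per animal, for placebo (P) and anti-miR-182 (A) at day 2 and day 7; y axes differ and do not start at 0. Macrophage markers reach 0.58 to 1.95 in placebo at day 7, and transporters are at 1.81 to 1.98 in placebo at day 2 and 1.49 to 1.77 at day 7.

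The other 26 members lay at or below the median of all genes, with means from 3.48 (Slco6d1) to 6.40 (Slc22a17), and their differences are read with that in mind. In placebo 5 were called lower at day 7 and 2 higher, where 23.7% and 4.22% of all genes were. Slco1b2, the liver uptake carrier, had 4.39, 4.37 and 4.32 at day 2 and 3.48, 3.22 and 3.42 at day 7 (-0.99 ± 0.13, limma adjusted p = 0.000348). Abcc8, a potassium channel subunit, had 6.06, 6.02 and 6.10 and then 5.36, 5.10 and 5.39 (-0.77 ± 0.13, limma adjusted p = 0.00138). Slc22a13 (OAT10), a carrier of urate and nicotinate, went up from 4.499, 4.61 and 4.54 to 5.34, 5.23 and 5.18 (0.70 ± 0.15, limma adjusted p = 0.00445).

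Each of these 3 genes had days that did not overlap in placebo, and each passed after quantile normalization and under anti-miR-182 in limma: Slco1b2 at -0.83 (adjusted p = 0.00116), Abcc8 at -0.83 (0.000959) and Slc22a13 at 0.86 (0.00146). Slco5a1 was called lower in both arms (-0.47 each), as was the sterol transporter Abcg5 (-0.35 and -0.52). Abcg3 (-0.49) and Slc22a14 (0.37) passed in placebo alone, and Abcc6 (-0.52) and the cation carrier Slc22a3 (-0.53) under anti-miR-182 alone, where the difference between the arms passed for none of the 4. Quantile normalization ended the calls of Abcg3, Abcg5, Abcc6 and Slc22a3 and that of Slco5a1 under anti-miR-182. It added a call for Slco2b1 in placebo, a gene named after its value was seen (0.52, adjusted p = 0.0294 in limma). Leaving out single arrays ended the placebo calls of Abcg3, Abcg5, Slc22a14 and Slco5a1 (adjusted p up to 0.082, 0.113, 0.082 and 0.0503 in limma) and that of Slc22a3 under anti-miR-182 (0.118). The remaining 17 did not pass in any comparison on the deposited values, though Slco6d1 passed in placebo without placebo replicate 3 of day 7 and Slco2b1 also after median centring and with array weights. They had differences between the treatments from -0.21 to 0.35 within a day.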

How the data were processed

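RNA of 12 rat kidneys was measured on 1-colour expression arrays, 3 animals in each of 4 groups. The deposited values are log2 signals made by the authors with RMA, per the submitters' processing notes; no source used here gives the version or the genome build. No scanner files were used, so background correction and normalization could not be repeated. Of 36685 rows, 18511 carried 1 symbol in the platform annotation. The brightest row stood for each of 291 genes with several rows, which left 18166 genes with a value on every array.

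Group means were fitted to all 12 arrays with limma 3.58.1 in R 4.3.3 (lmFit, eBayes), with Benjamini-Hochberg adjustment over all 18166 genes and a threshold of 0.05. The fit was tested on simulated data. The p-values rest on the spread between the 3 animals within each group, pooled over all groups. Animals outside a comparison therefore also enter its SE and p-value. For Slc22a8 the SE was 0.42 in placebo between the days, where the group SDs were 0.08 and 0.36. Its SD in anti-miR-182 at day 7 was 1.18. The number of arrays limits the precision. All well-expressed members were named, with every array for those past the threshold in a comparison, for Slc22a6, Slc22a8 and Abcc4, and for the 3 lowest unadjusted p-values of every treatment comparison; dim members and listed genes were named if they passed, with Hnf4a, Pdzk1 and Slc13a3. Members and lists were chosen with earlier results of these data known. Alternatives were quantile normalization, median centring, array weights, trended and robust eBayes, fits per day, the dimmest 50% of genes left out, the mean of a gene's rows, an adjusted p of 0.1, members above the 75th percentile, and leaving out each array.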

Additional observations from a re-analysis of the deposited data

How the results depend on the processing

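The counts of members called stayed at 0 in the 4 comparisons of treatment under every alternative run, leaving out each array included. Of all genes, 1 was called at day 2 when each day was fitted alone, with array weights or at an adjusted p of 0.1, and 0 for the mean over days without the dimmest 50% of genes. Without single arrays these counts ran from 0 to 1 at day 2, 0 to 3 at day 7, 0 to 4 for the mean and 0 to 1 for the difference between days.

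Between days in placebo, genes called went from 5080 to 3364 without the dimmest 50%, 2914 after quantile normalization and 3228 after median centring, and ran from 3198 to 5773 without single arrays. Members called went from 17 to 10 without the dimmest 50%, since fewer members were tested, 12 after quantile normalization and 14 after centring, to 22 at an adjusted p of 0.1 and 23 with array weights, and ran from 12 to 21. The median was -0.79 for members above the 75th percentile. Under anti-miR-182 genes called went from 5002 to 2651, 2695 and 2482 in the same order, and ran from 3069 to 5072. Members called went from 13 to 6, 6 and 4, to 16 at an adjusted p of 0.1 or with array weights, and ran from 7 to 17. The cause was not tested.

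Medians of the 26 without single arrays ran from -0.13 to 0.13 at day 2, 0.086 to 0.35 at day 7, -0.0011 to 0.28 for the mean, 0.032 to 0.31 for the difference between days, -0.57 to -0.34 in placebo and -0.39 to -0.25 under anti-miR-182. No paired analysis was possible because replicate numbers were given in accession order only and the animals of different groups share no number. Groups of 3 animals leave many modest differences undetectable, and how small a difference can be called depends on the spread of the gene.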

Other observations

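A pair of array rows carried several symbols and lay outside the members. The row of Slco1a1 and Slco1a5 had 8.40, 6.92 and 8.74 under anti-miR-182 and 7.72, 8.16 and 7.38 under placebo at day 2. At day 7 it had 6.99, 7.03 and 6.82 under anti-miR-182 and 8.32, 6.92 and 5.72 under placebo, so that the groups overlapped on both days. The row of Abcg3l2 and Abcg3l4 had 6.88, 6.74 and 6.94 under anti-miR-182 and 6.45, 6.60 and 6.89 under placebo at day 2, and 7.25, 6.73 and 7.25 against 6.75, 6.60 and 7.35 at day 7, also with overlap.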
